A study of Homo sapiens with 4 samples.

Results

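The genes described here are 10 transcription factors of the primitive streak and the early mesoderm, TBXT, EOMES, MIXL1, MSGN1, MESP1, MESP2, TBX6, GSC, EVX1 and LHX1. They were selected by name, with earlier results of these data known. Every probeset whose only gene symbol in the platform annotation was one of these genes was used. TBXT stands in that annotation under its older symbol T. All 10 were measured, on 52 probesets in all, out of 18640 genes on the array. The cells were embryoid bodies, floating aggregates in which human embryonic stem cells start to differentiate, grown from BG01V, an established stem cell line with a variant karyotype. One group received 10 µM TBBD for 48 h, a compound that, per the series title, blocks the methylation of histone H3 at arginine 17. The other group received DMSO, the vehicle. The compound was generally added between day 2 and day 4 of aggregate formation, and each group held 2 arrays, called TBBD 1, TBBD 2, DMSO 1 and DMSO 2 here after the replicate numbers of the labels. The labels do not say whether the 2 numbers were separate cultures, so the p-values given here cover the spread among these arrays alone, which may be technical.

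The primitive streak is the site at which cells of the epiblast leave the pluripotent state and form mesoderm and endoderm. Nodal, Wnt, BMP and FGF signals switch on T-box factors there, with TBXT (brachyury) and EOMES among the first, together with homeobox factors of the Mix and goosecoid type. Basic helix-loop-helix factors such as MSGN1 and the MESP proteins then act in cells that have entered the mesoderm, MESP1 in heart-forming and MESP2 and TBX6 in segment-forming mesoderm. In differentiating stem cells in culture these genes are switched on for a short time only and are then turned off.

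The promoters of TBXT, EOMES, MIXL1 and MSGN1 are shown because these 4 had the largest fitted differences between TBBD and DMSO. Each runs from 250 bases before the start of the gene to 50 bases after it, 5′ to 3′ on the gene's strand, from RefSeq on GRCh38.p14. The TBXT promoter lies at chr6:166168606-166168905 on the minus strand, EOMES at chr3:27722274-27722573 on the minus strand, MIXL1 at chr1:226223414-226223713 on the plus strand and MSGN1 at chr2:17816210-17816509 on the plus strand. Capitals mark matches to the letters given in the next paragraph.
TBXT: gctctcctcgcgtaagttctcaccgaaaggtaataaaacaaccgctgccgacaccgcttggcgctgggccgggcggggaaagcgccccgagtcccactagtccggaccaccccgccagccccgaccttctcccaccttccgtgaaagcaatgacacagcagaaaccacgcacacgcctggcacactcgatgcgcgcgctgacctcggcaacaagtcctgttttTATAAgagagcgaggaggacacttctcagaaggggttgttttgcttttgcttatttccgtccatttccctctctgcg
EOMES: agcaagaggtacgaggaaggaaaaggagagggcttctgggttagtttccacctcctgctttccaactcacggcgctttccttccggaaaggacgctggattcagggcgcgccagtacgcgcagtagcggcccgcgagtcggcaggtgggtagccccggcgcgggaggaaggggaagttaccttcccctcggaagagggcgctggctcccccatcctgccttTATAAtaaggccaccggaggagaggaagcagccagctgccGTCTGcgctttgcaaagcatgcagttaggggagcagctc
MIXL1: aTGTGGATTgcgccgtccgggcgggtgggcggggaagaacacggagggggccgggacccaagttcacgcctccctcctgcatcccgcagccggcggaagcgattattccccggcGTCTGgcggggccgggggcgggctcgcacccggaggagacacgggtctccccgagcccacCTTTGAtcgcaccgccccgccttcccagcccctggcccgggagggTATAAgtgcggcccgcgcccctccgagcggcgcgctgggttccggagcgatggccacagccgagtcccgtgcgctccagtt
MSGN1: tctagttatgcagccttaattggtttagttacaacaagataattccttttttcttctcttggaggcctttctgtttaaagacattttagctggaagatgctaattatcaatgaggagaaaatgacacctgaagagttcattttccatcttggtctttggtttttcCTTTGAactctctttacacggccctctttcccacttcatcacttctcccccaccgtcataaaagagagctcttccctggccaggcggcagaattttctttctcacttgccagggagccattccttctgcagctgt

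Promoters of 8 of the 10 genes were in the sequence table, all but MESP1 and LHX1. Searched on both strands were AGGTGTG, part of the site that T-box factors bind, CTTTGA, the core of the TCF/LEF sites of Wnt signalling, CAGAC, the box that SMAD proteins of Nodal and BMP signalling bind, and AATNCACA, a site of the Nodal effector FOXH1. The T-box letters were found in the windows of MESP2 and EVX1, 2 of 8, against 4.57% of the 34796 different promoters of this length. The TCF/LEF letters were in MIXL1, 76 bases before the start, and MSGN1, 85 bases before it, 2 of 8 against 12.9%. The FOXH1 letters were in MIXL1 and MESP2, 2 of 8 against 3.33%, and the SMAD letters in 6 of 8 against 45.3%. In the MESP2 window the FOXH1 and T-box matches overlap. After the sequences had been read, TATAA was also searched, on the gene's strand with its first base 40 to 20 bases before the start. TBXT, EOMES and MIXL1 carried it, 27, 29 and 31 bases before their starts, 3 of 8 against 3.92% of all promoters. A match describes these letters in these windows and is not evidence that a factor binds there.

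Values are log2 signals from the authors' RMA processing, averaged here over a gene's probesets. Array medians over all probesets lay between 6.39 and 6.42. No detection call was used here. As a rough guide to signal without expression, 348 olfactory receptor genes had a median level of 5.40, with 90% of them between 5.18 and 5.66. Levels of different probesets are not strictly comparable. That range is of means over the 4 arrays, whereas values on single arrays, which can spread more, are set beside it here. All 9 measured stem cell markers lay above the top of that range on all 4 arrays, from LIN28A at 10.00 on TBBD 1, 9.08 on TBBD 2, 9.96 on DMSO 1 and 9.49 on DMSO 2 to SOX2 close to it at 5.74 on TBBD 1, 6.93 on TBBD 2, 6.09 on DMSO 1 and 7.49 on DMSO 2. The DMSO 1 array stood apart from the other 3 for the streak factors, and the difference of each factor and the counts over the gene lists are therefore also given without it. That setting was chosen for the lists after seeing the data, and it leaves 2 arrays of replicate 2 beside 1 of replicate 1.

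All 10 streak and mesoderm factors had a lower mean signal with TBBD than with DMSO, and none of the 10 differences passed the test. The median log2 difference over the 10 genes was -0.48, between -0.89 for MSGN1 and -0.11 for GSC, where the median of all genes was -0.0035. DMSO 1 was the highest of the 4 arrays for 9 of the 10 genes, and leaving out such an array makes the difference smaller by construction. Whether the high value belongs to that array or to the treatment within replicate 1 was not tested. Without DMSO 1, 8 of the 10 still lay lower with TBBD, by a median of -0.070. In that setting 47.9% of all genes lay lower, with a median of 0.0074. The same share stands behind the list counts given below without DMSO 1. In limma's moderated test 0 of the 10 had an adjusted p under 0.05, beside 0% of all genes, and each adjusted p was 1. At an unadjusted p under 0.05 in the same test, 0 of the 10 were lower, beside 0.349% of all genes. This count depends on the model. With the replicate number as a block in limma it was 7 of the 10, beside 1.43% of all genes, and again 0 had an adjusted p under 0.05. The labels do not say what the numbers share. A fitted difference below 0 was found for 51.2% of all genes, and DMSO 1 was the highest array for 29.2% of them. With 2 arrays against 2, an exact permutation test of a single gene cannot give a two-sided p below 0.333.

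**Figure D1:**
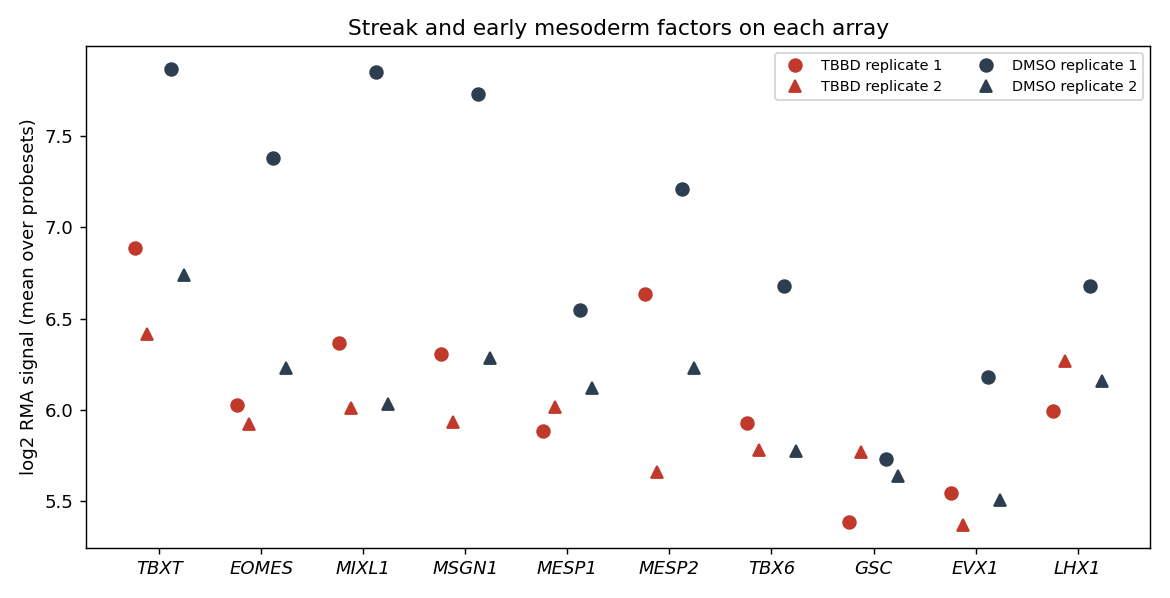
Mean log2 RMA signal (vertical axis) of the 10 genes on each array, with TBBD arrays in red left of DMSO arrays in dark blue, circles for replicate 1 and triangles for replicate 2. Each point is 1 array. DMSO 1 is the top point of every gene except GSC, and DMSO 2 lies among or near the TBBD points.

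The T-box factors bind DNA through a shared domain and open the mesoderm programme. TBXT, which is needed for the posterior mesoderm and the notochord, had log2 signals of 6.89 on TBBD 1 and 6.42 on TBBD 2, against 7.87 on DMSO 1 and 6.74 on DMSO 2. The groups overlapped, since TBBD 1 lay above DMSO 2, and DMSO 1 stood 0.98 above the next array. The fitted difference was -0.65 ± 0.40 (SE), and its 95% confidence interval ran from -1.68 to 0.38. It was -0.085 without DMSO 1. EOMES, which drives cells towards endoderm and cardiac mesoderm, had 6.03 on TBBD 1 and 5.92 on TBBD 2, against 7.38 on DMSO 1 and 6.23 on DMSO 2. Both TBBD arrays lay below both DMSO arrays, and the TBBD arrays were close to each other. The difference was -0.83 ± 0.38 (SE), with an interval from -1.81 to 0.15, and -0.25 without DMSO 1. TBX6, which keeps paraxial mesoderm from taking a neural fate in the mouse, had 5.93 on TBBD 1 and 5.78 on TBBD 2, against 6.68 on DMSO 1 and 5.78 on DMSO 2. Apart from DMSO 1 the TBX6 arrays spanned only 0.15. Its difference of -0.37 ± 0.31 (SE), with an interval from -1.16 to 0.42, turned to 0.081 without DMSO 1.

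The homeobox factors act at different ends of the streak. MIXL1, which is made across the streak and takes part in forming endoderm and mesoderm, had 6.37 on TBBD 1 and 6.01 on TBBD 2, against 7.85 on DMSO 1 and 6.03 on DMSO 2. Of the 10 genes it had the largest distance between DMSO 1 and the next array, 1.48, while DMSO 2 lay between the TBBD arrays. The fitted difference was -0.75 ± 0.59 (SE), with an interval from -2.28 to 0.77, and it turned to 0.15 without DMSO 1. EVX1, a factor of the posterior streak, had 5.55 on TBBD 1 and 5.37 on TBBD 2, against 6.18 on DMSO 1 and 5.51 on DMSO 2. All of its arrays but DMSO 1 lay within the olfactory receptor range. Its difference was -0.38 ± 0.24 (SE), and -0.049 without DMSO 1.

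GSC and LHX1 belong to the anterior streak and the organizer, the group of cells that patterns the embryo's axis. LHX1 had 5.995 on TBBD 1 and 6.27 on TBBD 2, against 6.68 on DMSO 1 and 6.16 on DMSO 2. The groups overlapped, with TBBD 2 above DMSO 2, and the difference was -0.29 ± 0.22 (SE), or -0.026 without DMSO 1. GSC had 5.39 on TBBD 1 and 5.77 on TBBD 2, against 5.73 on DMSO 1 and 5.64 on DMSO 2. It was the 1 gene of the 10 for which DMSO 1 was not the highest array, and its signals lay in or just above the olfactory receptor range, so whether it was expressed is uncertain. Its difference of -0.11 ± 0.17 (SE), with an interval from -0.53 to 0.32, was -0.059 without DMSO 1 and turned to 0.084 without TBBD 1.

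The basic helix-loop-helix factors mark cells that have entered the mesoderm. MSGN1, a regulator of presomitic mesoderm that was measured on 1 probeset, had 6.31 on TBBD 1 and 5.93 on TBBD 2, against 7.73 on DMSO 1 and 6.28 on DMSO 2. TBBD 1 and DMSO 2 were nearly level, 0.023 apart, and DMSO 1 stood 1.42 above the next array. The difference of -0.89 ± 0.48 (SE), the largest of the 10, had an interval from -2.13 to 0.36 and was -0.16 without DMSO 1. MESP1, a regulator of the earliest heart progenitors, had 5.88 on TBBD 1 and 6.02 on TBBD 2, against 6.55 on DMSO 1 and 6.12 on DMSO 2. As with EOMES, both TBBD arrays lay below both DMSO arrays, here in the mean of 2 probesets. In 1 of these probesets TBBD 2, at 6.69, lay above DMSO 2, at 6.55. The 2 probesets stood at 0.14 and -0.35 in replicate 2. The MESP1 difference was -0.39 ± 0.18 (SE), with an interval from -0.84 to 0.073, and -0.17 without DMSO 1. MESP2, its paralogue, which sets segment borders in the mouse, had 6.63 on TBBD 1 and 5.66 on TBBD 2, against 7.21 on DMSO 1 and 6.23 on DMSO 2. Like TBXT, EOMES, MIXL1, MSGN1, TBX6 and EVX1, MESP2 was lower on the replicate 2 array than on the replicate 1 array of either treatment. Its TBBD 2 minus TBBD 1 of -0.97 was the lowest of the 10, and its DMSO 2 minus DMSO 1 was -0.98. The fitted MESP2 difference was -0.57 ± 0.45 (SE), with an interval from -1.73 to 0.59. It was -0.080 without DMSO 1 and -0.085 without TBBD 2, but -1.06 without either DMSO 2 or TBBD 1. EOMES and MESP1 were the 2 of 10 genes whose groups did not overlap with TBBD below, beside 10.4% of all genes.

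Within each replicate number, the streak factors lay far lower with TBBD in replicate 1 and little lower in replicate 2. In replicate 1 all 10 were lower, by a median of -0.72, and 8 of the 10 by at least 1.5-fold, where 54.7% of all genes were lower and 0.912% by at least 1.5-fold. In replicate 2, 7 of the 10 were lower, by a median of -0.12, and 0 of the 10 by at least 1.5-fold, where 46.7% of all genes were lower and 0.381% by at least 1.5-fold. With 1 array on each side these values have no test, and whether the 2 numbers differ in their response was not tested.

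MIXL1 stood at -1.48 in replicate 1 and -0.025 in replicate 2, MSGN1 at -1.42 and -0.35, EOMES at -1.35 and -0.30, and TBXT at -0.98 and -0.32. In linear terms the DMSO signal was 2.80 times the TBBD signal for MIXL1 in replicate 1 and 1.02 times in replicate 2. MESP2 was the exception to the gap between numbers, at -0.58 and -0.57, a DMSO signal 1.49 and 1.48 times the TBBD signal. MESP1 stood at -0.66 and -0.11 and EVX1 at -0.63 and -0.14. TBX6 at -0.75 and 0.0064, LHX1 at -0.68 and 0.11 and GSC at -0.34 and 0.13 were the 3 that did not lie lower in replicate 2. The other 7 were lower in both numbers, beside 23% of all genes.

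**Figure D2:**
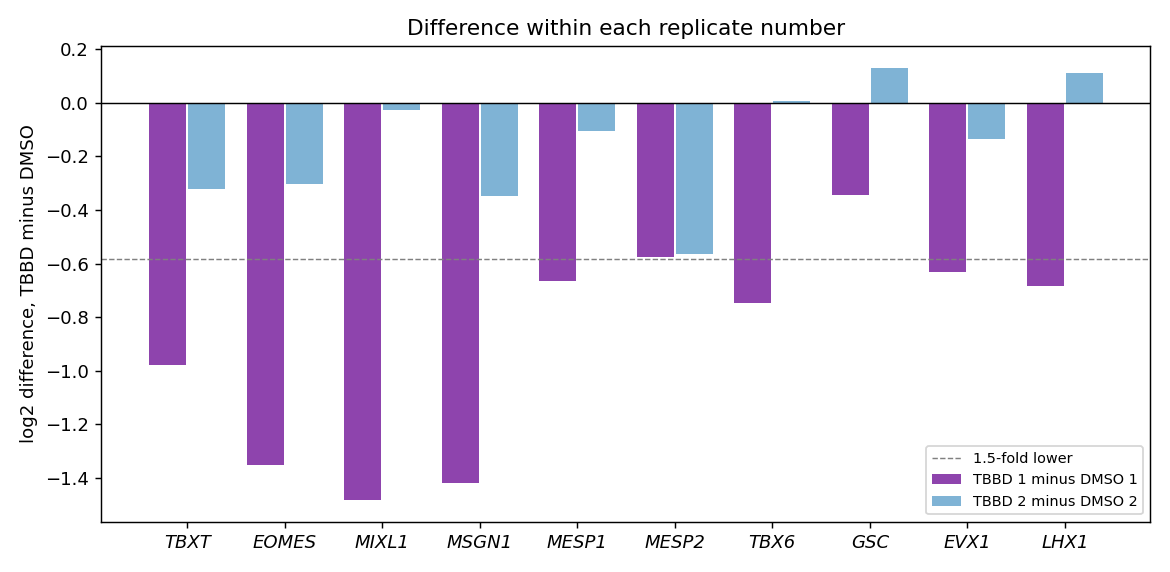
Log2 difference TBBD minus DMSO (vertical axis) of each gene, in purple for TBBD 1 minus DMSO 1 and in light blue for TBBD 2 minus DMSO 2. Each bar is a difference of 2 arrays and has no error, and the dashed line marks a 1.5-fold lower signal. The purple bars of 8 genes pass the line, whereas no light blue bar does, that of MESP2 coming nearest at -0.57.

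The arrays of 1 treatment also differed by number, and for the streak factors the gap was wider with DMSO than with TBBD. TBBD 2 lay below TBBD 1 by a median of -0.16 over the 10 genes, and DMSO 2 below DMSO 1 by a median of -0.94, where the medians of all genes were 0.017 and -0.021. By at least 1.5-fold, TBBD 2 was lower than TBBD 1 for 1 of the 10, MESP2, beside 2.66% of all genes, and DMSO 2 was lower than DMSO 1 for 7 of the 10, beside 2.33%. The DMSO 2 minus DMSO 1 difference was -1.81 for MIXL1, -1.44 for MSGN1, -1.15 for EOMES and -1.13 for TBXT. These differences share DMSO 1 with the replicate 1 comparison, so the 2 are not separate observations. Leaving DMSO 1 aside, the 3 other arrays spanned a median of 0.33 over the 10 genes and of 0.22 over all genes. TBBD 1 minus DMSO 2 ran from -0.25 for GSC to 0.41 for MESP2.

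Single probesets showed the same difference between the numbers. In replicate 1, 49 of the 52 probesets of these genes were lower with TBBD, 32 of them by at least 1.5-fold, where 50.6% and 8.74% of all named probesets were. In replicate 2, 31 of the 52 were lower and 8 by at least 1.5-fold, where 48.6% and 7.59% of all were, and 30 of the 52 were lower in both, beside 23.7%. In limma over all probesets 0 of the 52 had an adjusted p under 0.05, beside 0% of all. At an unadjusted p under 0.05 in that limma fit 4 of the 52 were lower, 2 of TBX6 and 1 each of EOMES and TBXT, beside 1.33% of all. Without DMSO 1, 30 of the 52 were lower, beside 50% of all. Probesets of 1 gene share its RNA and are not replicates.

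The probesets of a gene spread widely around its mean. In TBXT the 11 replicate 1 differences ran from -1.76 to 0.012 with a median of -1.26 and an SD of 0.72, and the replicate 2 differences from -0.92 to 0.45 with a median of -0.28. In ID order, the third to the eighth TBXT probesets stood between -1.76 and -1.26 in replicate 1, and the last 2 stood at 0.012 and -0.087. The brightest TBXT probeset had 7.84 on TBBD 1 and 7.88 on TBBD 2, against 9.60 on DMSO 1 and 8.16 on DMSO 2. In EOMES all 7 probesets were lower in replicate 1, from -2.22 to -0.48, and 5 of the 7 in replicate 2. Both MIXL1 probesets stood close together in replicate 1, at -1.53 and -1.44, and on both sides of 0 in replicate 2, at -0.14 and 0.087.

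TBX6 and LHX1 were less uniform. All 11 TBX6 probesets were lower in replicate 1, from -1.48 to -0.17, while in replicate 2, 6 of the 11 were lower, from -0.79 to 0.62. In LHX1, 6 of 7 were lower in replicate 1, where 1 probeset stood at -1.94 and another at 0.21, and 3 of 7 in replicate 2. All 3 MESP2 probesets were lower in both numbers, and 1 of them carried most of the difference, at -0.90 in replicate 1 and -1.23 in replicate 2. All 4 EVX1 probesets were lower in replicate 1 and 2 of the 4 in replicate 2, whereas GSC had 3 of 4 lower in replicate 1, 1 of 4 in replicate 2 and 0 in both. Within a gene, the replicate 1 difference and the level on the replicate 2 arrays had a Pearson correlation of -0.27 in TBXT, -0.49 in EOMES, 0.15 in TBX6 and -0.14 in LHX1, over 11, 7, 11 and 7 probesets that share the same arrays.

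**Figure D3:**
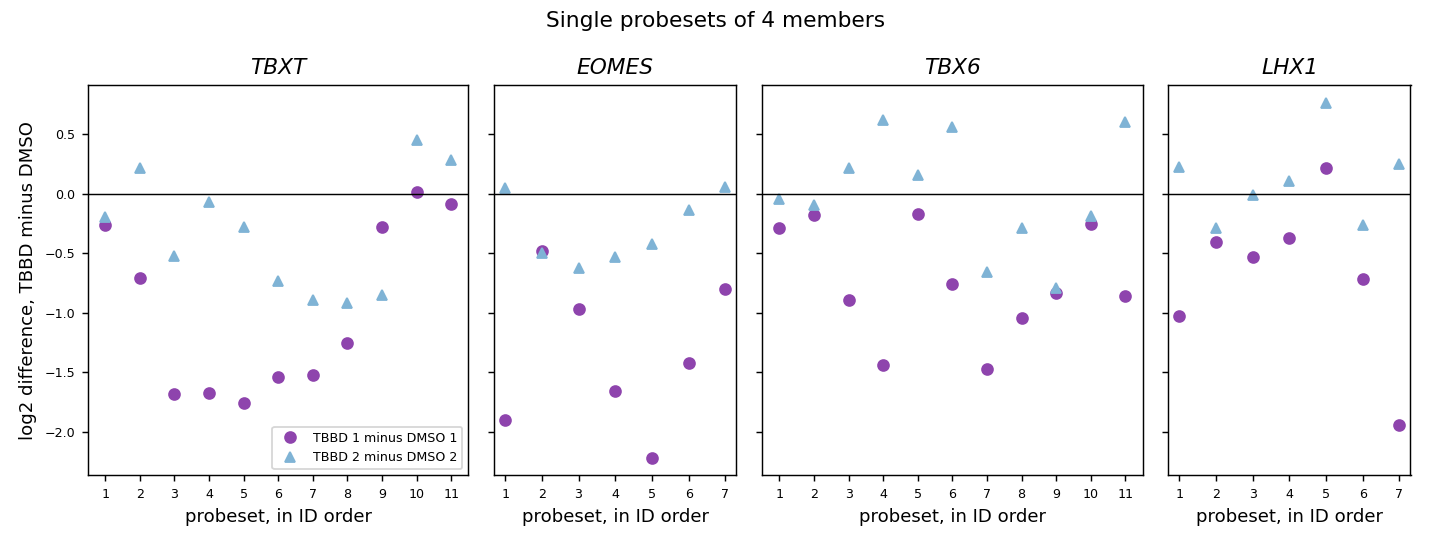
Log2 difference TBBD minus DMSO (vertical axis) of every probeset of TBXT, EOMES, TBX6 and LHX1, ordered by probeset ID (horizontal axis), with purple circles for replicate 1 and light blue triangles for replicate 2. Each point is 1 probeset on 2 arrays. Circles lie below 0 for all EOMES and TBX6 probesets, and triangles lie on both sides of 0 in all 4 genes.

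Ligands and secreted inhibitors that act on the streak also lay mostly lower with TBBD, though not when DMSO 1 was left out. Of 16 listed genes 15 were measured, and 0 passed limma's adjusted threshold in either direction, with 1 lower and 0 higher at an unadjusted p under 0.05, beside 0.349% and 0.397% of all genes. The fitted differences were below 0 for 13 and above 0 for 2, with a median of -0.23. DMSO 1 was the highest array for 10 of the 15, and 13 were lower in replicate 1 and 8 in replicate 2, at medians of -0.37 and -0.11. Without DMSO 1, 6 of the 15 lay lower and 9 higher, with a median of 0.032. GDF3, a TGF-beta family ligand, had 5.70 on TBBD 1 and 5.87 on TBBD 2, against 6.33 on DMSO 1 and 6.13 on DMSO 2, a difference of -0.45 ± 0.14 (SE) at an unadjusted limma p of 0.0227 and an adjusted p of 1. Both of its TBBD arrays lay below both DMSO arrays. Without DMSO 1, GDF3 stood at -0.34. WNT3A, a Wnt ligand of the streak, differed by -0.26 ± 0.11 (SE). It lay within the olfactory receptor range on TBBD 1 and TBBD 2, at 5.61 and 5.625. On DMSO 1 it had 5.91 and on DMSO 2 5.85, so whether it was expressed is uncertain. LEFTY2, an inhibitor of Nodal, differed by 0.32 ± 0.17 (SE), which was 0.51 without DMSO 1. LEFTY2 was 1 of the 2 ligand genes with a higher mean signal with TBBD, along with FGF8 at 0.029 ± 0.12 (SE). FGF8 lay in or just above the olfactory receptor range, from 5.62 on TBBD 1 to 5.76 on TBBD 2.

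Receptors and signal effectors were nearly level between the groups. All 20 listed genes were measured, 0 passed limma's adjusted threshold and 0 had an unadjusted p under 0.05, and 11 had a fitted difference below 0 and 9 above 0, with a median of -0.027. Without DMSO 1, 9 lay below 0 and 11 above, with a median of 0.0089. The 3 genes with the smallest p were BMPR2, a BMP receptor, at 0.15 ± 0.14 (SE), TCF7, a Wnt effector, at -0.19 ± 0.18 and LRP5, a Wnt co-receptor, at -0.20 ± 0.19. Without DMSO 1, BMPR2 stood at 0.23, TCF7 at 0.026 and LRP5 at -0.33.

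Of 20 other genes active in the streak and nascent mesoderm, 19 were measured and 0 passed limma's adjusted threshold. The fitted differences were below 0 for 13 and above 0 for 6, with a median of -0.11, and 15 were lower in replicate 1 and 6 in replicate 2, at medians of -0.26 and 0.063. Without DMSO 1, 8 of the 19 lay lower and 11 higher, with a median of 0.12. NKD1, which Wnt signals switch on and which dampens them in turn, had 7.29 on TBBD 1 and 7.13 on TBBD 2, against 8.26 on DMSO 1 and 7.53 on DMSO 2, a difference of -0.69 ± 0.26 (SE), or -0.32 without DMSO 1. It was the 1 gene of this list with an unadjusted limma p under 0.05, at 0.0465. RIPPLY1, a repressor in forming segments, differed by 0.17 ± 0.12 (SE). Its signals lay in or just above the olfactory receptor range, from 5.55 on DMSO 1 to 5.82 on TBBD 1. DLL3, a Notch ligand gene of presomitic mesoderm, differed by -0.28 ± 0.24 (SE), which turned to 0.047 without DMSO 1.

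Genes of later mesoderm derivatives lay on both sides of 0. All 18 were measured and 0 passed limma's adjusted threshold, 1 being higher and 0 lower at an unadjusted p under 0.05, with 7 below 0, 11 above 0 and a median of 0.061, and without DMSO 1 again 7 and 11, with a median of 0.072. TWIST1, a factor of mesenchymal mesoderm, had 7.70 on TBBD 1 and 7.74 on TBBD 2, against 7.39 on DMSO 1 and 7.46 on DMSO 2, a difference of 0.30 ± 0.11 (SE) at an unadjusted limma p of 0.0461. Both of its TBBD arrays lay above both DMSO arrays, and it stood at 0.26 without DMSO 1. TAL1, a factor of blood-forming mesoderm, differed by -0.20 ± 0.11 (SE) and FOXC2, a factor of paraxial mesoderm, by 0.23 ± 0.17, which was 0.029 without DMSO 1. TAL1 lay below the olfactory receptor median of 5.40 on every array, so whether it was expressed is uncertain. FOXC2 was measured on 1 probeset. The difference between the lists was not tested.

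Markers of other cell types in the aggregates differed between the replicate numbers. In bulk RNA fewer cells of a type and less RNA per cell cannot be told apart. All 9 measured stem cell markers of 10 listed had a lower mean with TBBD, and their summed linear signal ranged from 1570 to 2490 on the TBBD arrays and from 2031 to 2750 on the DMSO arrays. Their median was -0.67 for TBBD 2 minus TBBD 1 and -0.55 for DMSO 2 minus DMSO 1. NANOG differed by -0.17 ± 0.13 (SE) and SOX2 by -0.46 ± 0.59, TBBD minus DMSO. POU5F1 had 7.73 on TBBD 1 and 6.60 on TBBD 2, against 7.75 on DMSO 1 and 7.20 on DMSO 2. Of the 9 stem cell markers 7 were lower with TBBD in replicate 1, at a median of -0.21, and 8 in replicate 2, at a median of -0.35. POU5F1 stood at -0.012 and -0.60 in that order, and LIN28A at 0.048 and -0.41. SALL4, another stem cell factor, stood at -0.59 and -0.49. It had the largest fitted difference of the 9, -0.54, and does not stand for the list. Without DMSO 1, 5 of the 9 lay lower, with a median of -0.032. That setting sets both TBBD arrays against DMSO 2 alone. Since the median of these markers was lower on the replicate 2 arrays of either treatment, it does not replace the values within replicate 2.

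The 8 mesenchyme markers had a summed signal from 3411 to 10853 on the TBBD arrays and from 2878 to 9824 on the DMSO arrays, in each group with the lower value in replicate 1. COL1A1, a collagen gene of mesenchyme, had 9.20 on TBBD 1 and 10.79 on TBBD 2, against 8.90 on DMSO 1 and 10.64 on DMSO 2. The 8 markers of visceral endoderm and liver ranged from 431 to 1452 with TBBD and from 398 to 1158 with DMSO, and AFP, the fetal serum protein gene, had 5.85 on TBBD 1 and 8.22 on TBBD 2, against 5.50 on DMSO 1 and 7.98 on DMSO 2. The summed signal of both lists was thus higher on the replicate 2 arrays of either treatment. Fitted differences were below 0 for 3 of the 8 mesenchyme and 0 of the 8 visceral endoderm and liver markers, but for 7 of the 8 in each list without DMSO 1, when the replicate numbers are unequal. The 8 definitive endoderm markers had a median of -0.36 in replicate 1, with 7 lower, and 0.15 in replicate 2, with 2 lower. Of all genes 54.7% and 46.7% were lower. SOX17 stood at -0.72 and 0.15 in that order. Unlike most streak factors, SOX17 had a low TBBD 1 array, at 5.45, within the olfactory receptor range. It had 6.19 on TBBD 2, 6.17 on DMSO 1 and 6.04 on DMSO 2. Neural progenitor markers and markers of trophoblast and amnion had median fitted differences of 0.039 and 0.0030 over 6 and 8 genes. Their members lay on both sides of 0, with 3 lower and 3 higher in the first list and 4 and 4 in the second. At an unadjusted limma p under 0.05, 1 neural progenitor marker was higher, beside 0.397% of all genes, and 0 passed the adjusted threshold. The part of cell composition in the values of the streak factors was not tested.

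**Figure D4:**
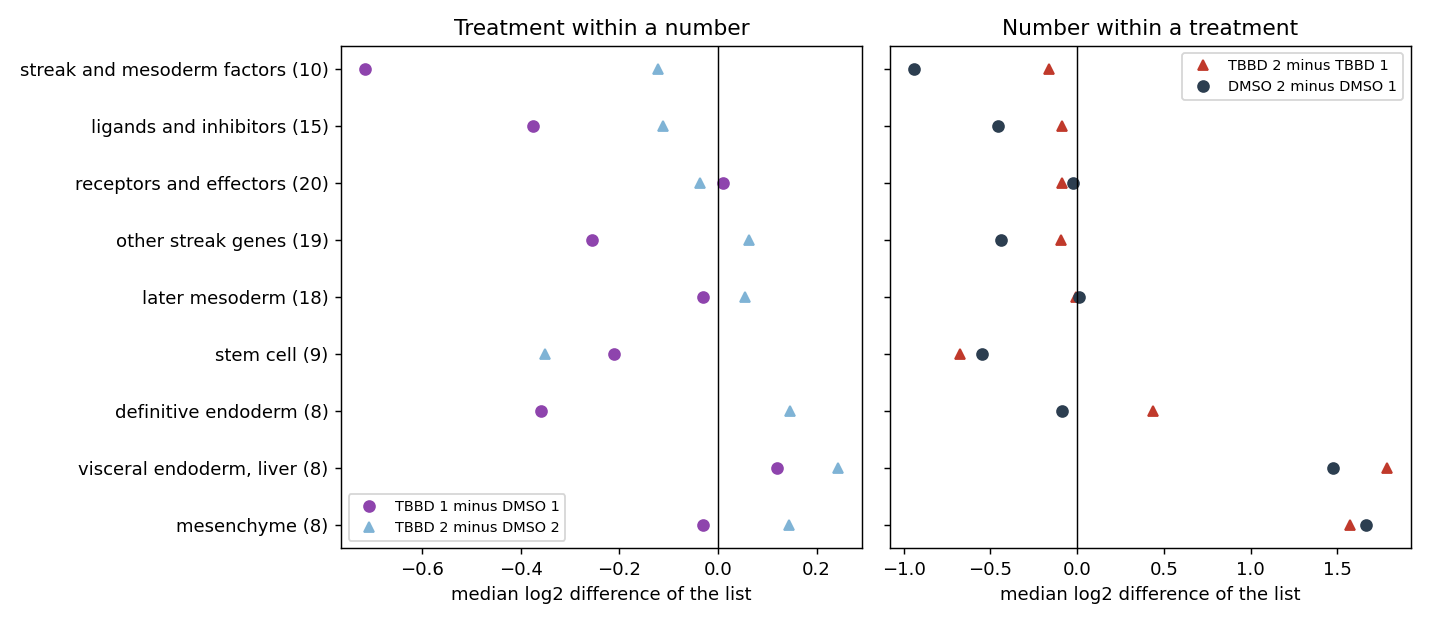
Median log2 difference (horizontal axis) of the gene lists, with the number of measured genes in brackets. The left panel holds TBBD minus DMSO within a replicate number, and the right panel replicate 2 minus replicate 1 within a treatment. The neural progenitor list and the trophoblast and amnion list are not drawn. The streak and mesoderm factors lie furthest to the left in the left panel in replicate 1, at -0.72, and in the right panel for DMSO, at -0.94. Visceral endoderm and mesenchyme lists lie above 1.4 for both treatments in the right panel.

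Genes outside the list with the same profile over the 4 arrays were looked for by distance. For each gene its mean was subtracted, and the Euclidean distance to the mean profile of the 10 factors was taken over 4 arrays. That mean profile was -0.17 on TBBD 1, -0.35 on TBBD 2, 0.72 on DMSO 1 and -0.20 on DMSO 2. Among 16812 other genes with at least 3 probesets, the closest were the histone gene H2BC14 at a distance of 0.13, the centromere protein gene CENPV at 0.15, the Wnt ligand gene WNT3 at 0.16, NKD1 at 0.21 and PAK1IP1, which encodes a protein that binds the kinase PAK1, at 0.22. WNT3 had 7.54 on TBBD 1 and 7.42 on TBBD 2, against 8.29 on DMSO 1 and 7.55 on DMSO 2. H2BC14 had 9.62 on TBBD 1 and 9.49 on TBBD 2, against 10.44 on DMSO 1 and 9.48 on DMSO 2. In both genes DMSO 1 was the high array and the other 3 were close together. Of the 10 factors themselves, TBX6 was closest to the mean profile, at 0.15, and GSC furthest, at 0.82, and histone genes of this family have close copies, so the H2BC14 value is uncertain. With 4 arrays, this likeness is a description only. The profile itself is mainly the high DMSO 1 value, and without that array H2BC14 differed by 0.080, CENPV by -0.11, WNT3 by -0.071, NKD1 by -0.32 and PAK1IP1 by 0.075, TBBD minus DMSO.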

How the data were processed

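RNA of 4 samples was hybridised to Affymetrix Human Gene 1.0 ST arrays. The deposited values are log2 signals per exon-level probeset, made by the authors with RMA, per the submitters' processing notes. The values themselves showed the log2 scale, and the RMA version and settings were not known here. Of 247312 probesets, 277 with a placeholder cell were left out. Only probesets with 1 gene symbol were used (219181 of the total, with 9980 carrying several and 18151 none). Older symbols were replaced by current RefSeq ones. The mean over probesets gave 18640 genes from 218927 probesets.

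limma 3.58.1 in R 4.3.3 tested TBBD against DMSO, two-sided, without covariates. P-values were adjusted over all genes by Benjamini-Hochberg, with a cutoff of 0.05. The script was tested on simulated data. Tables and plots used Python 3.11.15, pandas 2.3.3, numpy 2.4.6 and matplotlib 3.10.9. The number of arrays limits the precision. Alternatives were quantile normalization again, the median over probesets, the brightest 9320 genes, genes with at least 3 probesets, single probesets, an intensity trend, the replicate number as a block, and each array left out. All 10 factors are named, with up to 3 genes of the smallest p from each of the 4 lists of pathway genes, the 5 genes nearest in profile, and the markers POU5F1, NANOG, SOX2, LIN28A, AFP and COL1A1. FGF8, SOX17 and SALL4 were named after their values were seen. The factors and lists were chosen with earlier results of these data known.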

Additional observations from a re-analysis of the deposited data

How the results depend on the processing

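No alternative brought any of the 10 factors, or any other gene, past limma's adjusted threshold, and the lowest adjusted p was 1 in each fit over genes. At an unadjusted p under 0.05, limma gave between 23 genes, among the brightest 9320, and 496, with the replicate number as a block, against 139 as reported. With 1 array left out, the median of the 10 factors ran from -0.94 to -0.070, 8 to 10 of them lay lower with TBBD, and 0 were called. The lowest and highest medians came without DMSO 2 and without DMSO 1. Such fits assume that the lone array varies like the other group and leave the replicate numbers unequal. MIXL1 ran from -1.66 to 0.15 and TBX6 from -0.82 to 0.081, lowest without DMSO 2 and turned in direction without DMSO 1. GSC ran from -0.30 without TBBD 2 to 0.084 without TBBD 1. The cause of these reversals was not tested. Among the brightest 9320 genes 5 factors were left to count, all 5 lower, with a median of -0.75. That filter averages all 4 arrays, and without DMSO 1 in the average only TBXT passes it, so these values follow from the filter and support nothing. Chosen after seeing the data was the count of lower genes in each list without DMSO 1. With the median over probesets, EOMES stood at -0.44, LHX1 at -0.51 and the 10 factors at a median of -0.42. Among the 10 factors no other direction changed under these settings. Outside them, some list medians and named genes turned without DMSO 1, as given with each list.

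The replicate block left the differences and the 0 calls as they were. In that limma fit 7 of the 10 factors lay lower at an unadjusted p under 0.05, beside 1.43% of all genes, MESP2 having the smallest at 0.00157, and each adjusted p was 1. Across genes, TBBD 2 minus TBBD 1 and DMSO 2 minus DMSO 1 had a correlation of 0.566. The labels do not say what the numbers share, so this is a hint from the data and not the design. Without a detection call, no signal over background could be given for the dim factors GSC and EVX1.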
